A study of Mus musculus with 26 samples.

Results

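C2C12 cells with Mettl3 knockdown (Cas9M3) were compared with control C2C12 cells (Ctrl) on day 3 of differentiation (DM3), gene by gene, in RNA sequencing libraries. The comparison took the 4 libraries whose labels name the line and the day, 2 of Cas9M3 and 2 of Ctrl, out of 26 samples in the series, and it covered 13824 of the 55487 genes listed in their table. C2C12 is a mouse skeletal myoblast line that exits the cell cycle, expresses sarcomere genes and fuses into multinucleated myotubes when serum is lowered. The Cas9M3 cells were stable derivatives made with lentivirus that carried dCas9-KRAB, a Cas9 that cannot cut joined to a repressor domain and driven by the hUbC promoter, with a guide against the Mettl3 promoter, and were selected with puromycin. The series text calls the controls wildtype and the derivatives knockout, while the methods describe repression without a cut. All cells were grown in medium with serum (GM) to confluence and moved to differentiation medium with horse serum, and the 4 libraries of the same lines in GM shared the fit. Neither which guide the sequenced line carried nor what the control cells carried is given in the sources used here, so the line and the knockdown cannot be told apart. The labels do not say whether replicates were separate cultures, so every p-value measures the spread between these libraries, which may be technical.

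METTL3 is the catalytic subunit of the nuclear complex that writes N6-methyladenosine (m6A) on mRNA, with METTL14 as its partner and WTAP as a regulatory subunit. Reader proteins that bind m6A affect the splicing, export, translation and decay of the methylated transcript, and m6A also helps cells to tell their own RNA from foreign RNA. Myoblast differentiation is driven by the bHLH factors MYOD1 and MYOG together with MEF2 factors, which switch on the contractile apparatus, the calcium release machinery and the membrane proteins of fusion.

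The values are FPKM, fragments per kilobase of gene length scaled by a factor for each library. From the steps in the low values, the 4 DM3 libraries held 15095000 to 25917000 reads on genes (14230000 to 29567000 over all 8), and 1 read on a 1 kb gene was worth 0.0359 to 0.0681 FPKM. The factor did not follow the reads on genes alone. In replicate 2 of GM, 1 such read was worth 0.104 FPKM in Ctrl (14230000 reads) and 0.0545 FPKM in Cas9M3 (18898000 reads). In replicate 2 of each line 8.22% (Ctrl) and 11.3% (Cas9M3) of reads fell on 3 ribosomal repeat loci, against 0.412% and 0.537% in replicate 1. The share was highest, 28.7%, in replicate 2 of Ctrl GM, which also entered the fit. Libraries of the same replicate number deviated together, and counts from a fit with the replicate number as a block are given beside the list counts that it moved.

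The repressed region was the Mettl3 promoter. RefSeq places the 250 bases before the Mettl3 transcription start at chr14:52305125-52305374 (GRCm38.p6, minus strand). They are shown 5′ to 3′ as sequence upstream of the start, and the guide was aimed at the Mettl3 promoter. The guide sequences that the study lists for Mettl3 do not occur in this run on either strand. The target site is therefore not marked, and no capitals are used here.
Mettl3: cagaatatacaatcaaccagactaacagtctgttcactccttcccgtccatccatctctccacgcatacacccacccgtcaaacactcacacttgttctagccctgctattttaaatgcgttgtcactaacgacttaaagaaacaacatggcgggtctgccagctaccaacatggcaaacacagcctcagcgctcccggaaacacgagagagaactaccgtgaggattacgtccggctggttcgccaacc

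Mettl3 RNA was at 4.68 and 5.15 FPKM in the Ctrl DM3 libraries and at 0.148 and 0.0805 FPKM in the Cas9M3 DM3 libraries. The knockdown libraries both lay far below the controls, so the targeted gene does not go against the label of any of the 4. On the log2(FPKM + 0.1) scale, which understates the change of low genes, Mettl3 fell by 4.56 (SE 0.40, limma adjusted p = 0.0187). The gene lies on chr14:52294841-52305128 on the minus strand, and its 3′ end overlaps Tox4, which runs the opposite way. Since the strand setting of the counting is not given, reads in such overlaps cannot be assigned to either gene, here or for other overlapping genes. Tox4, an HMG box gene, differed by -0.26 on the log2 scale (adjusted p = 0.466). Among the 7 other genes tested within 100 kb of Mettl3, 0 were called by limma, also in the fits with the replicate block and of the 4 DM3 libraries alone; the lowest value among them was that of Sall2 (-0.81, adjusted p = 0.129), a zinc finger gene upstream of the Mettl3 promoter.

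Among 21 tested genes for m6A writers, erasers and readers, Mettl3 was the single one called, with or without the replicate block. The fit of the 4 DM3 libraries also called Fto, Igf2bp2, Wtap and Ythdf2 higher, where it called 10.2% of all genes higher. Mettl14 was at 3.23 and 2.81 FPKM in Ctrl and at 2.25 and 1.70 FPKM in Cas9M3 (log2 fold change -0.60, adjusted p = 0.255). Wtap was at 8.36 and 8.72 FPKM in Ctrl and at 12.9 and 11.9 FPKM in Cas9M3 (log2 fold change 0.53, adjusted p = 0.16, or 0.0366 in the 4 DM3 libraries). Both differences were smaller than 2-fold, and the median over the 21 genes was 0.02. The demethylase gene Fto had 18.6 and 17.4 FPKM in Ctrl and 26.7 and 28.3 FPKM in Cas9M3 (log2 fold change 0.61, adjusted p = 0.184, or 0.0243 in the 4 DM3 libraries). Tox4, Sall2, Mettl14, Wtap, Fto, Igf2bp2 and Ythdf2 were named after their values were seen.

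Over all genes, limma called 274 of 13824 at an adjusted p of at most 0.05, a share of 1.98%. Of these, 179 were higher in the knockdown (1.29% of tested genes) and 95 were lower (0.687%), and in all 274 the libraries of the groups did not overlap. When the log2 fold change also had to reach 2 or -2, the differentially expressed genes (DEGs) numbered 110 higher and 55 lower. Both Cas9M3 libraries lay above both Ctrl libraries for 29.3% of tested genes and below them for 34.2%, and the median log2 fold change of all genes was -0.05.

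**Figure D1:**
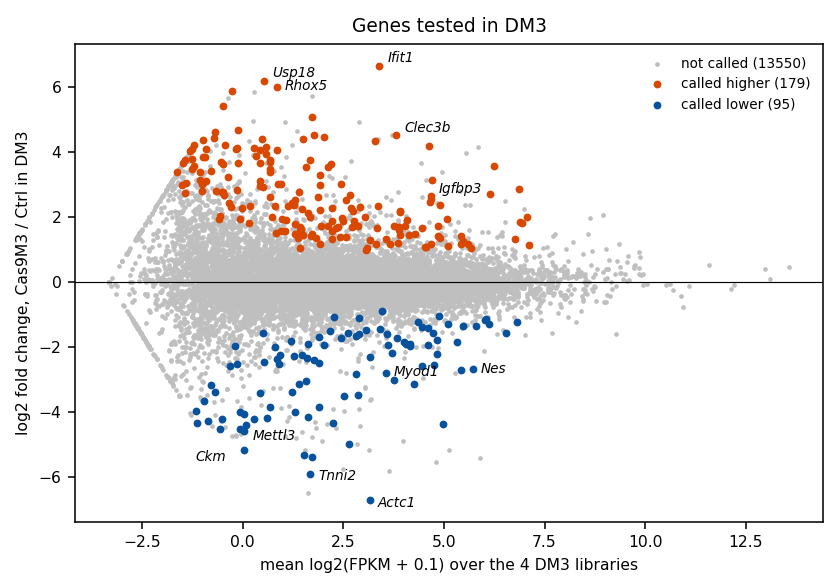
Log2 fold change of each of 13824 tested genes in DM3 (vertical, Cas9M3 over Ctrl) against its mean log2(FPKM + 0.1) over the 4 DM3 libraries (horizontal), with 179 genes called higher in orange, 95 called lower in blue and the rest in grey. Actc1 lies lowest (-6.70), and Ifit1 lies highest (6.66), with Usp18 and Rhox5 close to it.

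These calls depend on how the spread was estimated. The fit used all 8 libraries of the table, and genes of differentiation varied widely between the 2 GM libraries of a line: the summed FPKM of 7 myotube markers was 134 and 17.5 in Ctrl GM and 99.5 and 4.56 in Cas9M3 GM. A fit of the 4 DM3 libraries alone called 1407 genes higher (10.2%) and 1230 lower (8.9%), among them all 274, and the fit with the replicate block called 505 genes in all (3.65%), again with the 274 among them: 319 higher (2.31%) and 186 lower (1.35%). Without any 1 of the 4 DM3 libraries 0 genes were called by limma, with 1176 to 1415 genes at an unadjusted p under 0.05, so every call below rests on both libraries of each line. An exact permutation test of 2 against 2 libraries cannot go below p = 0.333, so it could not decide any single gene. Calls close to the threshold also moved with the settings. Of the genes named here, with a pseudocount of 0.01 FPKM, Ifit1, Mef2a, Tnnt2, Trim54, Ccl7, Id1, Gstm1, Ctrb1, 4921525O09Rik, Gm26682, Col4a6, Gm4951 and Gm30613 were not called (adjusted p = 0.0512 to 0.138). With no filter on low values, 10 of these 13 and Usp18, Oas1a, Tnni2 and Tnnc1 were not called (adjusted p = 0.0507 to 0.0608). Other settings ended the calls of Rrm2, Cdkn1c, Bambi, Ccl7, Gstm1, Col4a6 and Id1 (adjusted p = 0.0511 to 0.0841).

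Among the muscle regulators Myod1 and Mef2a fell in the knockdown. Myod1, which starts the myogenic programme, was at 30.5 and 31.2 FPKM in the Ctrl DM3 libraries and at 4.55 and 4.17 FPKM in the Cas9M3 DM3 libraries, with no overlap. Its log2 fold change was -2.80 (SE 0.41, adjusted p = 0.0337). Mef2a, a MADS box partner of the myogenic factors, fell by 1.70 on the log2 scale (SE 0.29, adjusted p = 0.048) from 28.1 and 23.7 FPKM to 8.77 and 7.05 FPKM. Myog, the factor of terminal differentiation, had 89.1 and 83.3 FPKM in Ctrl and 3.50 and 2.28 FPKM in Cas9M3, and both knockdown values lay below every control value. Its log2 fold change of -4.88 (SE 1.66) was not called in the fit of 8 libraries (adjusted p = 0.197), in which Myog also varied from 11.1 to 2.70 FPKM in Ctrl GM and from 12.7 to 0.182 FPKM in Cas9M3 GM. In the fit of the 4 DM3 libraries it was called (adjusted p = 0.00212), with adjusted p between 0.00212 and 0.262 over the settings that kept all libraries.

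Of 18 tested muscle transcription factors, 2 were called lower (0.687% of all genes) and 0 higher, with a median log2 fold change of -0.32. Under the replicate block 1 was called higher (2.31% of all genes) and 3 lower (1.35%). In the fit of the 4 DM3 libraries 1 was called higher (10.2%) and 7 lower (8.9%). Myf5, the other early myogenic factor, differed less than Myod1 (17.9 and 21.8 FPKM in Ctrl, 10.8 in both Cas9M3 libraries, log2 fold change -0.87, adjusted p = 0.599). Myf5 was named after its values were seen. Among 10 tested genes of satellite cell and myoblast identity, Itga7, the laminin-binding integrin of muscle, fell by 1.93 (SE 0.21, adjusted p = 0.0215) from 54.1 and 41.6 FPKM to 11.9 and 12.9 FPKM. None of the other 9 was called in the main fit (0.687% of all genes were called lower). The replicate block also called 1 of the 10 lower (1.35% of all genes). The 4 DM3 libraries alone called 3 lower (8.9%) and 2 higher (10.2%).

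Fusion genes showed their largest differences at the membrane proteins that act in fusion itself. Mymk, which encodes the fusogen myomaker, was at 199 and 180 FPKM in Ctrl and at 4.58 and 3.47 FPKM in Cas9M3. Its log2 fold change was -5.53 (SE 1.23), which was not called in the main fit (adjusted p = 0.0838), was called with the replicate block (adjusted p = 0.0394), and had adjusted p between 0.00161 and 0.109 over the settings that kept all libraries. Mymx, for the partner fusogen myomixer, was at 7.56 and 11.6 FPKM in Ctrl and at 0.559 and 0.265 FPKM in Cas9M3 (log2 fold change -4.27, SE 1.08, adjusted p = 0.11, or 0.00667 in the 4 DM3 libraries). Cdon, a cell surface co-receptor of myoblasts, fell by 2.19 (SE 0.22, adjusted p = 0.0199) from 70.6 and 52.3 FPKM to 13.6 and 12.8 FPKM. Over 31 tested genes linked with fusion the median was -0.22. In both Cas9M3 libraries 16 lay lower (34.2% of all genes) and 10 higher (29.3%). In the main fit 1 was called lower (0.687% of all genes) and 0 higher, with 2 lower under the replicate block (1.35%). The 4 DM3 libraries alone called 8 lower (8.9%) and 2 higher (10.2%).

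The genes chosen for qPCR were Mymk, Mymx, Myog, Tnnc2, Tnni1, Tnni2 and Chrng. In all 7 both Cas9M3 libraries lay below both Ctrl libraries (34.2% of all genes). Their log2 fold changes ran from -5.89 to -4.27 with a median of -4.89. Apart from Myog, the study named these genes from its own data on regenerating muscle and on m6A in C2C12 cells. Those C2C12 cells overexpressed Mettl3 or GFP. The study also ran qPCR of genes linked with fusion in Mettl3 knockdown against control cells, before and after differentiation was induced. Myog is among the genes it names for the qPCR before induction. Those qPCR values were not used here. The genes chosen for qPCR are a selected set and are not evidence of a direction for other genes. Tnnc2 and Tnni2, the calcium-binding and inhibitory subunits of the fast troponin complex, were called (-4.98, SE 0.78, adjusted p = 0.0379, and -5.89, SE 0.94, adjusted p = 0.0414). Tnni1, the slow inhibitory subunit, had 20.5 and 22.3 FPKM in Ctrl and 0.568 and 0.681 FPKM in Cas9M3. Chrng, the acetylcholine receptor subunit of embryonic muscle, had 15.0 and 12.1 FPKM in Ctrl and 0.431 and 0.491 FPKM in Cas9M3. These values did not overlap, yet the main fit called neither Tnni1 (adjusted p = 0.0787) nor Chrng (adjusted p = 0.0568). With the replicate block both were called (adjusted p = 0.0466 and 0.0297), and the 4 DM3 libraries alone called all 7 genes.

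**Figure D2:**
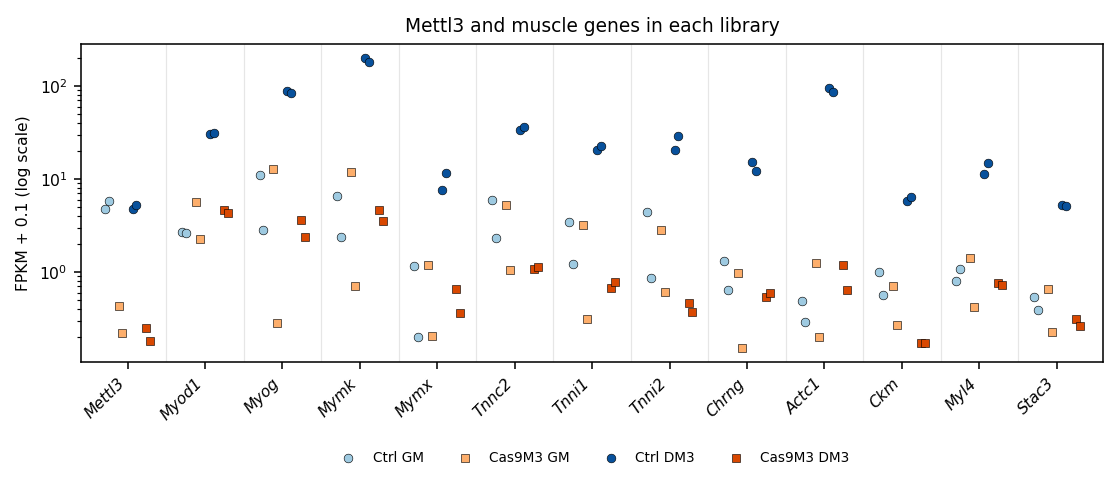
FPKM + 0.1 (vertical, log scale) of Mettl3 and 12 muscle genes in each of the 8 libraries, 2 per group, with circles for Ctrl, squares for Cas9M3, pale colours for GM and dark colours for DM3. The dark squares lie below the dark circles for all 13 genes, and the pale GM points of Myog, Mymk and Tnni2 are spread over several fold within a group.

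The thin filament genes were low as a group. All 17 tested members had both Cas9M3 libraries below both Ctrl libraries, against 34.2% of all genes, and their median log2 fold change was -4.34. In the main fit 6 were called lower (background 0.687%), 11 were with the replicate block (background 1.35%) and 14 were in the fit of the 4 DM3 libraries (background 8.9%). Actc1, the cardiac alpha actin that embryonic skeletal muscle also uses, went from 95.9 and 86.1 FPKM to 1.09 and 0.547 FPKM and had the lowest log2 fold change of all tested genes (-6.70, SE 0.84, adjusted p = 0.0262). Tnnc1 and Tnnt2, the slow and cardiac troponin genes of developing muscle, fell by 4.36 and 4.34 (adjusted p = 0.0414 and 0.0417). Tmod1, which caps the thin filament, fell by 3.36 (adjusted p = 0.0357) from 7.60 and 7.08 FPKM to 0.746 and 0.518 FPKM.

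Myosin and scaffold genes followed the same direction. The sarcomeric myosin list holds heavy and light chains and also light chain kinases. All 7 of its tested genes, the kinase genes Mylk2 and Mylk4 among them, lay lower in both Cas9M3 libraries (34.2% of all genes). Their median was -4.46. Myl4, an embryonic light chain, was the member called (from 11.1 and 14.9 FPKM to 0.665 and 0.617 FPKM, -4.13, adjusted p = 0.0304), against 0.687% of all genes called lower. With the replicate block 2 were called (background 1.35%), and all 7 were in the 4 DM3 libraries alone (background 8.9%). Only these 7 of 17 listed genes passed the filter on low values, and with no filter the median was -1.45. Embryonic myosin heavy chain, Myh3, named after its values were seen, was at 39.3 and 21 FPKM in Ctrl and at 0.272 and 0.180 FPKM in Cas9M3 (-6.48, adjusted p = 0.0571, or 0.0206 with the replicate block). Among 27 genes of the Z disc, M band and thick filament scaffold, 24 lay lower in both Cas9M3 libraries (34.2% of all genes). Of the 27, 2 were called lower (background 0.687%) and 10 were with the replicate block (background 1.35%). The median was -3.23. Of 35 listed genes these 27 passed the filter, and the median ran from -4.02 to -1.54 over the settings that kept all libraries. Trim54, a ubiquitin ligase of the Z disc and M band, fell by 5.30 (SE 0.91, adjusted p = 0.0492) from 17.4 and 18.7 FPKM to 0.450 and 0.284 FPKM. Cavin4, a muscle caveolar coat protein, fell by only 1.13 (SE 0.16, adjusted p = 0.0314) from 98.6 and 98.1 FPKM to 43.1 and 46.7 FPKM.

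Excitation and calcium genes differed in the same way. In the list of sarcoplasmic reticulum and calcium handling, 19 of 21 genes lay lower in both Cas9M3 libraries (34.2% of all genes). In the main fit 4 were called lower (background 0.687%), 12 were with the replicate block (background 1.35%) and 16 were in the 4 DM3 libraries alone (background 8.9%). The median was -3.14, and ran from -3.25 to -1.46 over the settings that kept all libraries. Ryr3, a calcium release channel, fell by 4.37 (adjusted p = 0.0227), and Stac3, which couples the voltage sensor to that release, fell by 4.19 (adjusted p = 0.0269) from 5.21 and 5.01 FPKM to 0.212 and 0.161 FPKM. Cacng1, the gamma subunit of the muscle calcium channel, went from 56.7 and 56.5 FPKM to 6.20 and 6.43 FPKM (-3.14, adjusted p = 0.0357). Tmem38a, a potassium channel of the reticulum, fell by 2.19 (adjusted p = 0.0197). Ryr3 shares exon sequence with Aven on the other strand, so some of its reads may belong to that gene. At the neuromuscular junction 9 of 12 tested genes lay lower in both Cas9M3 libraries (34.2% of all genes) and 3 higher (29.3%). Of the 12, 2 were called lower (background 0.687%) and 5 were under the replicate block (background 1.35%). Among those called was the receptor subunit Chrnb1 (20.1 and 17.4 FPKM against 2.92 and 2.26 FPKM, -2.82, adjusted p = 0.0337).

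Taking the 5 contractile and excitation lists together, 76 of 84 tested genes lay lower in both Cas9M3 libraries (34.2% of all genes) and 5 higher (29.3%). In the main fit 15 were called lower (background 0.687%) and 0 higher, and 40 were called lower with the replicate block (background 1.35%). Their median was -3.27 (-3.80 to -1.91 over the settings that kept all libraries), and 84 of 115 listed genes passed the filter. The medians of the differences within replicate 1 and within replicate 2 were -3.27 and -3.22. Outside these lists Ckm, the muscle creatine kinase, fell by 5.14 (SE 0.54, adjusted p = 0.0215) from 5.65 and 6.33 FPKM to 0.0739 and 0.0701 FPKM. Nes, the intermediate filament nestin of immature muscle fibres, fell by 2.68 (adjusted p = 0.0227) from 163 and 109 FPKM to 21.6 and 19.9 FPKM. Aif1l, an actin-bundling protein, had the smallest adjusted p of the comparison (0.00869) and fell by 3.0 (SE 0.15) from 38.7 and 37.6 FPKM to 4.80 and 4.59 FPKM.

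The remaining large falls were not all muscle genes. Ctrb1, a chymotrypsinogen, fell by 5.38 (adjusted p = 0.0431, or 0.0828 with a pseudocount of 0.01 FPKM) from 20.6 and 21.6 FPKM to 0.531 and 0.310 FPKM. The noncoding genes 4921525O09Rik and Gm26682 had log2 fold changes of -4.52 and -4.51 (adjusted p = 0.0264 and 0.0339, or 0.0805 and 0.0778 with a pseudocount of 0.01 FPKM). Il33, a nuclear cytokine, was at 106 and 113 FPKM in Ctrl and at 17.2 and 16.6 FPKM in Cas9M3 (-2.68, SE 0.37, adjusted p = 0.0313). Among 24 tested collagen genes the median was -0.24, and 3 were called, all lower (0.687% of all genes). These were Col15a1, a basement membrane collagen (11.7 and 8.06 FPKM against 0.469 and 0.568 FPKM, -3.99, adjusted p = 0.0187), Col5a3 (-2.34, adjusted p = 0.0279) and Col4a6 (-2.51, adjusted p = 0.0449).

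Markers of myotubes and of C2C12 myoblasts were summed as a check of the cells. The summed FPKM of 7 myotube markers was 786 and 703 in Ctrl DM3 and 20.9 and 15.6 in Cas9M3 DM3, with none of the 7 at 0 in any library, and the level that marks differentiated cells was absent from the knockdown DM3 libraries. The summed level of 6 myoblast markers was 177 and 164 in Ctrl DM3 and 55.7 and 49.4 in Cas9M3 DM3. It was 40.8 and 35.8 in Ctrl GM and 69.3 and 24.4 in Cas9M3 GM, so in the control line this list was higher in differentiation medium and does not mark the undifferentiated state here. Fewer cells of a type and less RNA per cell cannot be told apart in these bulk samples.

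Cell division genes were also lower in the knockdown libraries. All 41 tested mitosis genes had both Cas9M3 DM3 libraries below both Ctrl DM3 libraries (34.2% of all genes), with a median log2 fold change of -1.22, between -1.95 and -0.58. In the main fit limma called 0 of the 41, with 20 at an unadjusted p under 0.05 (2429 of all 13824 genes). The median FPKM of the list differed between 9.44 and 25.6 in the Ctrl GM libraries of that fit. Of the 41, 1 was called lower with the replicate block (1.35% of all genes) and 37 were called lower in the 4 DM3 libraries alone (8.9%). The list's median level was 7.84 and 8.26 FPKM in Ctrl DM3 and 2.83 and 2.88 FPKM in Cas9M3 DM3. Ccna2, the S and M phase cyclin, was at 21.7 and 22.8 FPKM in Ctrl and at 5.72 and 5.65 FPKM in Cas9M3 (-1.95, adjusted p = 0.163, or 0.00247 in the 4 DM3 libraries).

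DNA replication genes were lower by less. Of 46 tested, 40 lay lower in both Cas9M3 libraries (34.2% of all genes), 3 were called lower (0.687% of all genes) and 0 higher, and the median was -0.69. With the replicate block 4 were called lower (1.35% of all genes). E2f2, an S phase transcription factor, fell by 3.39 (SE 0.32, adjusted p = 0.0187) from 4.72 and 3.90 FPKM to 0.316 and 0.321 FPKM. Rrm2, the ribonucleotide reductase subunit, fell by 1.28 (adjusted p = 0.0269) from 53.9 and 52.7 FPKM to 22.0 and 21.7 FPKM, and the helicase subunit Mcm2 fell by 1.08 (adjusted p = 0.0421). Among 33 genes of cell cycle exit and p53 targets the median was 0.19, and 1 was called higher (1.29% of all genes) and 0 lower. This was Cdkn1c, an inhibitor of cyclin-dependent kinases (0.125 and 0.0589 FPKM against 1.09 and 1.34 FPKM, 2.79, adjusted p = 0.0335). The 4 DM3 libraries alone called 8 of the 33 higher (10.2% of all genes) and 5 lower (8.9%).

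Within the stress response list 6 genes fell. The integrated stress response and unfolded protein list had 28 tested genes and a median of -0.18, 12 of them above 0 and 16 below, with 6 called lower (0.687% of all genes) and 0 higher. The replicate block called 7 lower (1.35% of all genes), and the 4 DM3 libraries alone 10 lower (8.9%) and 2 higher (10.2%). The 6 were Asns, Mthfd2, Psat1, Phgdh, Slc7a5 and Chac1, which act in asparagine synthesis, mitochondrial folate metabolism, serine synthesis, amino acid uptake and glutathione breakdown. Mthfd2 went from 18.2 and 21.9 FPKM to 3.75 and 4.16 FPKM (-2.31, adjusted p = 0.0187). Psat1 went from 51.2 and 55.0 FPKM to 15.5 and 15.1 FPKM (-1.79, adjusted p = 0.0199). Asns fell by 1.84, Phgdh by 1.41 and Slc7a5 by 1.90 (adjusted p = 0.0187, 0.0203 and 0.0227). Chac1, which also was called (-1.59, adjusted p = 0.0372), was named after its value was seen.

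Cholesterol synthesis genes were lower without passing the main test. All 23 tested members had a negative log2 fold change (median -0.86), and 22 lay lower in both Cas9M3 libraries (34.2% of all genes). The 4 DM3 libraries alone called 18 lower (background 8.9%), against 1 with the replicate block (background 1.35%). In the fit of 8 libraries limma called 0 of them, with 16 at an unadjusted p under 0.05 (2429 of all 13824 genes). Hmgcs1, which makes the substrate of the rate-limiting reductase, was at 116 and 109 FPKM in Ctrl and at 58.6 and 57.2 FPKM in Cas9M3 (-0.95, adjusted p = 0.131, or 0.0106 in the 4 DM3 libraries). Proteasome subunits had a median of -0.49 over 31 genes and cytosolic ribosomal proteins one of 0.23 over 43 genes. Nuclear and mitochondrially encoded respiratory genes had medians of -0.29 over 49 genes and -0.13 over 13 genes. In these 4 lists limma called 0 genes. At an unadjusted p under 0.05 were 6 proteasome genes, 6 nuclear respiratory genes and 0 of the other lists (2429 of all 13824 genes). The replicate block called 2 nuclear respiratory genes lower (1.35% of all genes). The 4 DM3 libraries alone called 6 nuclear respiratory and 6 proteasome genes lower (8.9%). In both Cas9M3 libraries 25 of 31 proteasome, 21 of 49 nuclear respiratory and 1 of 13 mitochondrially encoded genes lay lower (34.2%). Of the 43 ribosomal protein genes, 7 lay higher (29.3%) and 0 lower in both.

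The largest rises were interferon-response genes. Of 49 tested members of that list, 48 had both Cas9M3 libraries above both Ctrl libraries (29.3% of all genes), 19 were called higher (background 1.29%) and 0 lower, 26 were with the replicate block (background 2.31%), and 45 were called higher in the 4 DM3 libraries alone (background 10.2%). The median log2 fold change was 2.94 (1.96 to 3.34 over the settings that kept all libraries), with 3.21 within replicate 1 and 2.90 within replicate 2. The list's median level was 1.22 and 1.49 FPKM in Ctrl DM3 and 12.8 and 12.9 FPKM in Cas9M3 DM3. Interferon-response genes are switched on by a transcription factor complex that contains IRF9 and binds a promoter element with spaced GAAA blocks, or directly by IRF3 and IRF7 after foreign or self RNA and DNA are sensed.

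The promoters of Ifit1 and Oas1a are shown 5′ to 3′ as examples of that element in genes with large rises. Each run holds the 250 bases before the RefSeq start (GRCm38.p6), Ifit1 at chr19:34640639-34640888 on the plus strand and Oas1a at chr5:120907526-120907775 on the minus strand. Capitals mark matches to GAAANNGAAA or its reverse complement, at 104 and 85 bases before the start in Ifit1 and in overlapping matches at 20 and 14 bases before it in Oas1a.
Ifit1: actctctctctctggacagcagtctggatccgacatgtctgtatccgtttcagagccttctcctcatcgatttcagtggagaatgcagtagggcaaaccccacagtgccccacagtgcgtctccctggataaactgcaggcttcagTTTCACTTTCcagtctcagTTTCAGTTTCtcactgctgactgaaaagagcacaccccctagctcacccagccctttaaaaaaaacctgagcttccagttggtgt
Oas1a: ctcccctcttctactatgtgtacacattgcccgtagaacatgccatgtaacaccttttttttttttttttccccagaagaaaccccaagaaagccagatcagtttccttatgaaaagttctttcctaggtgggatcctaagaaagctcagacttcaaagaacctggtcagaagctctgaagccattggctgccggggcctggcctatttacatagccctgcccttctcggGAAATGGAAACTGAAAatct

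Searched on both strands from 250 bases before to 50 after the start, this motif was present in 11 of the 12 called interferon-list genes that had a RefSeq promoter. It was present in 18.6% of 118 genes called higher with a promoter, in 4.62% of 65 called lower and in 3.65% of 9588 tested genes. Outside the interferon list it was in 10.4% of 106 genes called higher. These matches are letters in a window and not shown sites of binding.

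Among the effectors, Ifit1, which binds RNA that lacks the host cap methylation, was at 0.645 and 1.36 FPKM in Ctrl and at 112 and 98.4 FPKM in Cas9M3. It had the highest log2 fold change of all tested genes (6.66, SE 1.09, adjusted p = 0.043). Mx2, a dynamin-like antiviral GTPase, rose by 5.41 (adjusted p = 0.0314) from 0 and 0.0166 FPKM to 4.65 and 4.37 FPKM. Bst2, the tether of budding virus, rose by 4.2 (SE 0.72, adjusted p = 0.0493) from 4.28 and 7.58 FPKM to 97.7 and 115 FPKM. Trim30a, a ubiquitin ligase of immune signalling, rose by 5.07 (adjusted p = 0.0257) from 0.515 and 0.424 FPKM to 20.9 and 17.3 FPKM.

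The 2′-5′ oligoadenylate synthetases sense double-stranded RNA and activate RNase L. Oas1a was at 0.0193 and 0 FPKM in Ctrl and at 6.28 and 6.25 FPKM in Cas9M3; with controls near the level of 1 read its log2 fold change depends on the pseudocount, 5.86 with 0.1 FPKM and 2.85 with 1 FPKM, and it was called with both (adjusted p = 0.0401 with 0.1 FPKM, and 0.00169 to 0.053 over the settings that kept all libraries). Oas1b, which is annotated as a polymorphic pseudogene, was at 0.0183 and 0.0302 FPKM in Ctrl and at 2.94 and 3.01 FPKM in Cas9M3. It rose by 4.63 (SE 0.41, adjusted p = 0.0187). In general 66 of the 179 genes called higher had a Ctrl DM3 mean under 0.5 FPKM. The RNA helicases Ifih1 and Dhx58, sensors of foreign double-stranded RNA, were also called higher (3.65, adjusted p = 0.0357, and 4.07, adjusted p = 0.0227).

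Usp18, which restrains interferon receptor signalling, rose by 6.20 (SE 0.96, adjusted p = 0.0373) from 0.0523 and 0.0861 FPKM to 11.7 and 12.8 FPKM. Irf9, the DNA-binding part of the interferon-activated complex, rose by 2.67 (adjusted p = 0.0237) from 2.38 and 2.50 FPKM to 14.8 and 17.4 FPKM. Irf7 was at 0.493 and 0.398 FPKM in Ctrl and at 9.27 and 10.8 FPKM in Cas9M3 (4.22, adjusted p = 0.0779, or 0.0489 with the replicate block). Irf7, Irf9, Mx2, Bst2, Ifih1 and Dhx58 were named after their values were seen. Of 20 interferon ligand genes listed, 16 were at 0 in all 4 DM3 libraries, and the highest value of any ligand in any of them was 0.140 FPKM.

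Immunity-related GTPase genes rose as well. Irgm2 went from 0.830 and 0.700 FPKM to 20.1 and 17.6 FPKM (4.45, adjusted p = 0.0262), and Iigp1 from 0.382 and 0.413 FPKM to 5.88 and 4.35 FPKM (3.37, adjusted p = 0.0227). Gbp9, a guanylate-binding protein outside the list, rose by 4.41 (SE 0.43, adjusted p = 0.0187). Rtp4, a receptor transporter that interferon induces, had 1.87 and 2.28 FPKM in Ctrl and 43.3 and 43.9 FPKM in Cas9M3 (4.34, adjusted p = 0.0187). Ifi203, of the HIN-200 family of DNA-binding proteins, rose by 2.51 (adjusted p = 0.0187). Irgm2, Gbp9, Ifi203 and Rtp4 have annotated exons that overlap a neighbour on the same strand (Igtp, Gbp4, Mndal and Gm45338). The split of reads within these pairs is uncertain.

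**Figure D3:**
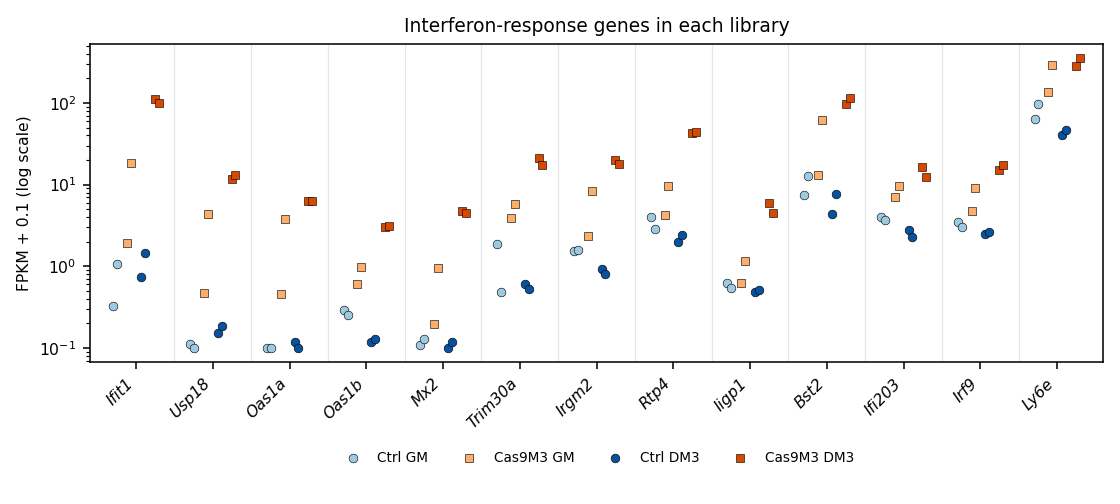
FPKM + 0.1 (vertical, log scale) of 13 interferon-response genes in each of the 8 libraries, 2 per group, with circles for Ctrl, squares for Cas9M3, pale colours for GM and dark colours for DM3. The dark squares lie above the dark circles for all 13 genes, and the pale squares of Cas9M3 GM lie below the dark squares for all but 1 library of Ly6e.

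Some called genes were neighbours. Along the chromosomes, 37 of the called genes lay in 16 runs of neighbouring tested genes called in the same direction, 15 of them higher. The longest run held 4 guanylate-binding protein genes (Gbp7, Gbp3, Gbp2b and Gbp2) at chr3:142530342-142638008 in GRCm38. The run of Oas1c, Oas1b and Oas1a lay at chr5:120800194-120907521, with log2 fold changes of 3.85 to 5.86, and the one of Trim12c, Trim30a and Trim30d at chr7:104338754-104507849, with 2.20 to 5.07. The genes of these runs that are not described elsewhere were named after their values were seen. Cdkn1c and Slc22a18, imprinted genes of the same cluster, lay side by side at chr7:143458339-143499334. Slc22a18, a transporter, rose by 4.42 (SE 0.56, adjusted p = 0.0262) from 0 and 0.0707 FPKM to 2.70 and 2.68 FPKM.

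Other large rises lay outside the interferon list. Rhox5, an X-linked homeobox gene of the reproductive tract, went from 0.0967 and 0.159 FPKM to 13.7 and 15.0 FPKM (5.99, SE 0.49, adjusted p = 0.0187). Clec3b, the plasminogen-binding protein tetranectin, went from 2.39 and 3.39 FPKM to 55.0 and 82.8 FPKM (4.52, adjusted p = 0.0227). Gm30613, Gm21718 and Gm4951 rose by 4.67, 4.42 and 4.37. Of these, Gm4951 is protein-coding and lies beside Iigp1, of the interferon list, in a run of genes called higher. Sparcl1, a matrix glycoprotein, rose by 2.33 (SE 0.18, adjusted p = 0.0187) from 4.68 and 4.36 FPKM to 20.6 and 26.0 FPKM. Gstm1, a glutathione transferase, rose by 1.34 (adjusted p = 0.044).

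Chemokine genes rose in part. Of 24 tested genes for chemokines and inflammatory cytokines, 18 lay higher (29.3% of all genes) and 3 lower (34.2%) in both Cas9M3 libraries, with 3 called higher (1.29%), 1 lower (0.687%, Il33) and a median of 1.24. The replicate block called 4 higher (2.31% of all genes) and 1 lower (1.35%), and the 4 DM3 libraries alone 13 higher (10.2%) and 2 lower (8.9%). Cxcl1, which attracts neutrophils, was at 6.36 and 7.53 FPKM in Ctrl and at 42.0 and 24 FPKM in Cas9M3 (2.18, SE 0.28, adjusted p = 0.0264). Ccl7, which attracts monocytes, rose by 2.72 (adjusted p = 0.048) from 24.9 and 30.6 FPKM to 226 and 148 FPKM. Cx3cl1, a membrane-bound chemokine, rose by 2.15 (adjusted p = 0.03) from 7.20 and 6.85 FPKM to 30.9 and 32.4 FPKM.

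In the list of Id, Notch and BMP genes 3 were called higher (1.29% of all genes) and 1 lower (0.687%). Id1, an inhibitor of bHLH factors such as MYOD1 and a target of BMP signalling, went from 6.44 and 8.44 FPKM to 22.2 and 27.2 FPKM (1.72, SE 0.29, adjusted p = 0.0484). The inhibitory SMAD genes Smad6 and Smad7 rose by 1.87 and 1.68 (adjusted p = 0.0262 and 0.0327), and Bambi, a decoy receptor on the TGF-beta list, rose by 3.04 (adjusted p = 0.0367). Dll1, the Notch ligand of differentiating myoblasts, fell by 2.49 (SE 0.26, adjusted p = 0.0203) from 9.26 and 8.15 FPKM to 1.41 and 1.52 FPKM. That list had a median of 0.14 over 23 genes, 13 above 0 and 10 below, and the myostatin, activin and TGF-beta list one of 0.13 over 26, 14 above 0 and 12 below. The replicate block called 4 of the first list higher (2.31% of all genes) and 1 lower (1.35%). In the insulin-like growth factor list 16 genes were tested, and the main fit called 1, higher (1.29% of all genes). This was Igfbp3, which binds the growth factors (9.85 and 10.4 FPKM against 58.7 and 69.4 FPKM, 2.65, adjusted p = 0.0262). The replicate block also called 1 lower (1.35%), and the 4 DM3 libraries alone 5 higher (10.2%) and 4 lower (8.9%).

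Matrix genes had a median of 0.53 over 45 tested members, with 26 higher (29.3% of all genes) and 9 lower (34.2%) in both Cas9M3 libraries. In the main fit 1 was called higher, a share close to the 1.29% of all genes, and 2 were with the replicate block (2.31% of all genes). The 4 DM3 libraries alone called 18 higher (10.2% of all genes) and 2 lower (8.9%). The gene called was Loxl1, an elastin cross-linking oxidase (16.0 and 15.6 FPKM against 46.8 and 58.2 FPKM, 1.72, adjusted p = 0.0262). The lists for immediate early genes, membrane repair, glycolysis, and fatty acid oxidation with the TCA cycle had medians between -0.39 and 0.17. In the main fit limma called 0 of their genes. In each list 4 to 6 genes were at an unadjusted p under 0.05, against 2429 of all 13824 genes. The replicate block called 1 glycolysis gene higher (2.31% of all genes), 2 lower (1.35%), and 1 membrane repair gene lower. The 4 DM3 libraries alone called 3 glycolysis genes higher (10.2% of all genes) and 6 lower (8.9%). For fatty acid oxidation with the TCA cycle that fit called 2 higher and 6 lower. It called 6 immediate early genes higher and 1 lower, and 1 membrane repair gene higher and 5 lower. For comparison with the muscle genes, the Actc1 promoter is shown 5′ to 3′ at chr2:114052876-114053125 (RefSeq, GRCm38.p6, minus strand), with capitals on a CArG box, the element that serum response factor binds, 47 bases before the start.
Actc1: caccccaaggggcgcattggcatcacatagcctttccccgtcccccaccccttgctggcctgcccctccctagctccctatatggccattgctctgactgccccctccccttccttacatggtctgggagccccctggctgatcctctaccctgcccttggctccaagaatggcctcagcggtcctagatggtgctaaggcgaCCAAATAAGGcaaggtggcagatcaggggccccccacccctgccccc
A CArG box was present in 1.54% of 65 promoters of genes called lower and in 1.6% of 9588 tested genes, and the E box CAGCTG, a motif that MYOD1 binds, was present in 33.8% and 17.8% of them. In the 10 called genes of the contractile and excitation lists with a promoter, CAGCTG was present in 2 and a CArG box in 1. The CAGCTG motif reads the same on both strands and was in 18.6% of the 118 promoters of genes called higher.

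**Figure D4:**
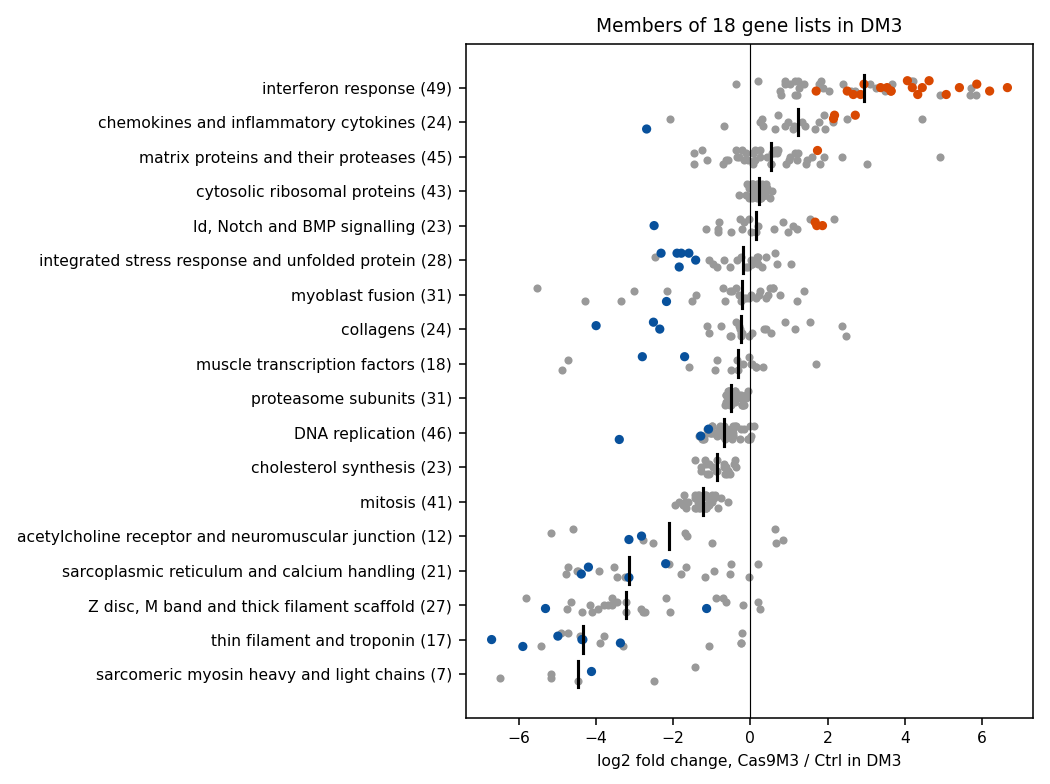
Log2 fold change in DM3 (horizontal, Cas9M3 over Ctrl) of the tested members of 18 gene lists (rows, with the number tested), where grey points were not called, orange points were called higher, blue points were called lower and a black bar marks the median. Interferon-response genes lie to the right (median 2.94), contractile genes to the left (median -4.34 for the thin filament), and mitosis genes in a narrow band around -1.22 with none called.

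Markers of other cell types were measured beside these rises. The summed FPKM of 8 macrophage and leukocyte markers was 2.34 and 2.27 in Ctrl DM3 and 7.19 and 8.40 in Cas9M3 DM3, most of it from Lyz2, and Adgre1, Itgam, Cd3e and C1qa were at 0 in all 4 libraries. For 7 fibroblast markers the sums were 22.2 and 22.6 against 56.3 and 59.3, led by Cd34 (10.2 and 10.6 FPKM against 31.9 and 35.6 FPKM, adjusted p = 0.278). For 7 adipocyte markers they were 18.7 in both Ctrl libraries against 33.7 and 38.6, with Lep and Cfd at 0 in all 4 libraries, and for 8 osteoblast markers 8.98 and 6.05 against 12.3 and 12.6, with Ibsp at 0. Epithelial markers summed to 11.5 and 13.6 in Ctrl and to 3.26 and 4.36 in Cas9M3, nearly all Krt14; endothelial markers summed to at most 0.237 in any DM3 library. Neural markers reached 1.29, most of it from Syt1, which was not called in the main fit (adjusted p = 0.0511) and was with the replicate block (adjusted p = 0.0367). None of the other markers in these 7 lists was called, with or without the replicate block. The fit of the 4 DM3 libraries called Cd34, Col14a1, Dpt, Bglap, Bglap2, Phex, Cebpa, Pparg, Lyz2 and Syt1 higher and Krt14 lower (Cd34 adjusted p = 0.00354). The part of these cell types in the results was not tested.

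The same lines in GM show which differences were already present before differentiation. Mettl3 was at 4.70 and 5.65 FPKM in Ctrl GM and at 0.331 and 0.118 FPKM in Cas9M3 GM (log2 fold change -4.10). In GM limma called 0 genes at the adjusted threshold, Mettl3 included (adjusted p = 0.188), with 1244 genes at an unadjusted p under 0.05. Of the 179 genes called higher in DM3, 158 also had a positive log2 fold change in GM, where their median was 0.92 against 2.36 in DM3. Of the 95 called lower, 55 were negative in GM, with a median of -0.13 against -2.36. The DM3 and GM comparisons use different libraries but the same lines and the same fit, and the genes were chosen in DM3, so the size of their DM3 values is partly set by that choice.

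The difference of the knockdown effect between DM3 and GM was tested itself, and limma called 0 genes, with 1198 at an unadjusted p under 0.05. The smallest adjusted p was that of Aif1l (difference -2.71, adjusted p = 0.138), which was at 4.81 and 4.65 FPKM in Ctrl GM and 3.87 and 3.84 FPKM in Cas9M3 GM. Actc1 had a difference of -7.11 (adjusted p = 0.266); it stood at 0.389 and 0.192 FPKM in Ctrl GM and at 1.16 and 0.101 FPKM in Cas9M3 GM. Ifit1 had a difference of 3.32 (adjusted p = 0.605), with 0.225 and 0.975 FPKM in Ctrl GM and 1.83 and 18.5 FPKM in Cas9M3 GM. Log2 fold changes of similar size in both media were seen for Loxl1 (1.53 in GM, 1.72 in DM3), Cdkn1c (2.49 and 2.79) and Il33 (-2.11 and -2.68).

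**Figure D5:**
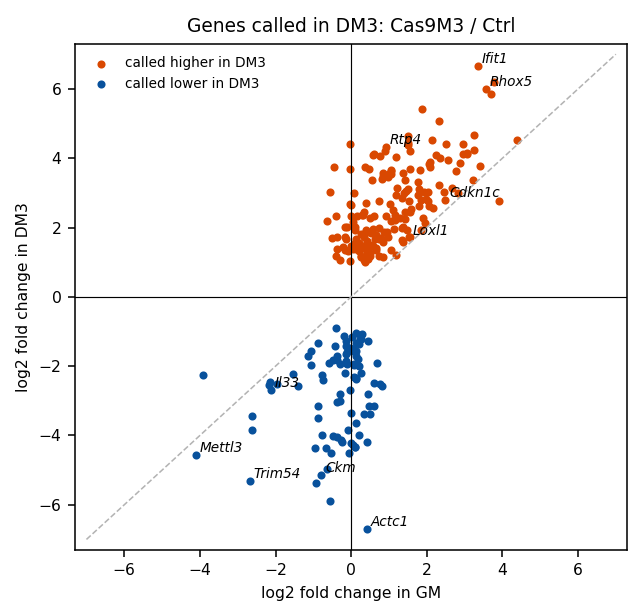
Log2 fold change in DM3 (vertical) against that in GM (horizontal), both Cas9M3 over Ctrl, for the 274 genes called in DM3, with orange for genes called higher, blue for genes called lower and a dashed line where both are equal. Of the orange points 158 of 179 lie to the right of 0, while the blue points gather around 0 in GM, 55 of 95 to the left, with Mettl3 near the dashed line.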

How the data were processed

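RNA was sequenced in 8 C2C12 libraries, 2 per group (Ctrl and Cas9M3, in GM and on day 3 of differentiation), made with a SMARTER mRNA-Seq kit. The deposited values are FPKM, for which the authors used HISAT2 on GRCm38, featureCounts and the fpkm function of DESeq2. The strand setting is not given in the sources used here. Depth was read from low FPKM values, of which 98.5% to 98.7% in each library were whole multiples of 1 read (tolerance 0.02 reads).

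A gene entered the fit where 2 or more libraries reached 0.5 FPKM. limma 3.58.1 (lmFit and eBayes with trend, R 4.3.3) was run on log2(FPKM + 0.1) of all 8 libraries without covariates, and p-values were adjusted by Benjamini-Hochberg over 13824 genes. Calls used an adjusted p up to 0.05. The code was tested on simulated data. Deviations of same-numbered libraries from their group means correlated at 0.278 to 0.680 in all 6 pairs of groups, so the numbers were taken to pair the samples and a block was tried as an alternative. Other alternatives changed the pseudocount, filter, scaling, trend, groups fitted and libraries.

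Named by rule were Mettl3, the qPCR genes, the 12 largest rises and 12 largest falls among called genes without overlap, with at least 2 FPKM and a protein-coding or long noncoding type, up to 4 called members per list (2 abundant ones where none was called), and the 5 genes with the smallest adjusted p for the difference between DM3 and GM. Members and lists were chosen with earlier results of these data known. Promoters came from RefSeq. Python 3.11.15, pandas 2.3.3, numpy 2.4.6 and matplotlib 3.10.9 were used. The table of regenerating muscle was not used here. A few genes are not reported here.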

Additional observations from a re-analysis of the deposited data

Results flagged for a closer look

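Among the named genes, 9 had both knockdown libraries above both controls in one medium and below them in the other. The share of all tested genes with such a switch is not given here, so the 9 cannot be set against a background. The difference itself (log2 fold change in DM3 minus that in GM) was tested by limma in the same fit and passed for none of the 9. It was negative for Rrm2 (-1.73), Mcm2 (-1.36), Dll1 (-3.10) and Slc7a5 (-2.58), which were lower in the knockdown in DM3 and higher in GM. It was positive for Cxcl1 (2.81), Gstm1 (1.5), Junb (1.03), Rplp0 (0.63) and Anxa1 (0.61), which were higher in DM3 and lower in GM. The adjusted p of the difference was 0.266 for Rrm2, Mcm2, Dll1, Slc7a5 and Cxcl1 and 0.283 for Gstm1. For Junb, Rplp0 and Anxa1 the DM3 difference was not called either.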

How the results depend on the processing

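The 274 genes called in DM3 became 453 with a pseudocount of 1 FPKM, 2637 with only the DM3 groups in the fit, 505 with the replicate block, 442 with no mean-variance trend and 2429 at an unadjusted p under 0.05. The 165 DEGs became 595 with only the DM3 groups, 260 with the block and 281 with no trend, and the 272 genes called at 2-fold became 1556, 486 and 441. Leaving out 1 library gave 0 to 883 called genes, 0 to 325 DEGs and 0 to 729 genes at 2-fold: 0 without either library of Ctrl DM3 or Cas9M3 DM3, and the most without a Ctrl GM library. In GM the count of 0 became 1 with no trend, 1244 at an unadjusted p under 0.05 and 0 to 24 without 1 library. The other settings (a pseudocount of 0.01 FPKM, no filter, 1 FPKM as the filter, scaling by median ratios, quantile normalization) kept each DM3 count within 1.5 times. The deposited values already carried a scaling beyond the read total, so scaling by median ratios is a weak check. The cause of each change was not tested, except that 3 DM3 libraries leave fewer samples.

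Mettl3 stayed lower in all settings and kept its call in all that kept the 8 libraries; without 1 DM3 library its log2 fold change was -4.80 to -4.33, not called. Of 926 values for the other 103 named genes under settings with all libraries, 855 kept direction and call; the replicate block added 4 calls and lost 0. The genes that reversed were uncalled and near 0: Jund (-0.0084 with quantile normalization, -0.17 to 0.206 without 1 library), Rplp0 (-0.041 with quantile normalization), and, without 1 library, mt-Co1 (-0.084 to 0.266), mt-Nd1 (-0.23 to 0.066) and Runx2 (-0.23 to 0.455). List medians moved past the replicate spread in 59 of 386 values with all libraries, 18 of them with no filter; the median of the myosin list was then -1.45, with genes under the filter included. Depth limits genes near 1 read.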
